A study of Mus musculus with 11 samples.

Results

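The 8 genes described here carry signals between neurons and microglia, and were chosen by name among the 53465 genes of the count files: Csf1, Il34, Csf1r, Cx3cl1, Cx3cr1, Cd200, Cd47 and Sirpa. Each was matched to 1 Ensembl identifier. RNA was sequenced from mPFC CRF1+ neurons, cells of the medial prefrontal cortex that express the type 1 receptor of corticotropin releasing factor. These cells were isolated by fluorescence-activated cell sorting from single male CRF1:GFP mice, at least 10 weeks old, in which a transgene marks CRF1-expressing cells with green fluorescent protein. The 5 withdrawn mice breathed ethanol vapor intermittently for 5 to 6 weeks, were also injected with ethanol and pyrazole, and were taken after 5 to 8 days of abstinence. The 6 naïve mice had air in place of vapor and also received pyrazole, an inhibitor of alcohol dehydrogenase, so that this drug was common to both groups. The sort used GFP and dyes for live cells, with no surface marker of microglia.

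CSF1 and IL-34 are the ligands of the receptor kinase CSF1R, on which microglia depend for survival and division. CX3CL1 is a neuronal membrane chemokine that can be shed, and its receptor CX3CR1 is found in the brain mainly on microglia. CD200 and CD47 are neuronal surface proteins that restrain myeloid cells, CD200 through the receptor CD200R and CD47 through SIRPA, which neurons also express.

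Libraries held 7351567 to 22244869 counts on genes, and 3 counts in 1 library corresponded to 0.135 to 0.408 CPM, the counts scaled to the size of the library. For withdrawn mice 3, 4 and 5, title and treatment read ethanol but a further label reads control and carries the animal numbers that also stand on naïve mice 4, 5 and 6, while their titles carry numbers of their own. Values without these 3 mice are therefore also given for some of the results. Crhr1, the gene of the sorted receptor, was at 93.0 ± 22.0 CPM (n = 6, SD) in naïve and 88.3 ± 32.8 CPM (n = 5, SD) in withdrawn mice. The glutamatergic marker Slc17a7 was at 1434 ± 332.5 CPM (n = 6, SD) and 1354 ± 478.6 CPM (n = 5, SD), against 39.6 ± 21.0 CPM (n = 6, SD) and 55.9 ± 44.99 CPM (n = 5, SD) for the GABAergic marker Gad2. Markers of other cell types were not evenly spread. The summed level of 10 fibroblast markers was 0.0709 to 74.7 CPM in naïve mice, and 233 to 1273 CPM in withdrawn mice 1, 3, 4 and 5 against 19.7 CPM in withdrawn mouse 2. Naïve mouse 5 had the fewest genes with a count (15585), and withdrawn mouse 4 the most (31830).

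Of the 8 members, only Csf1 had groups that did not overlap. The gene is encoded on the minus strand of chromosome 3 (GRCm38, 107741048 to 107760469), and its exons overlap no other gene. The 250 bases before its start are shown because Csf1 was the member with the largest difference between groups, beside those of Cd200, whose group means were among the closest. Both are from RefSeq (GRCm38.p6, minus strand, chr3:107760470-107760719 and chr16:45409054-45409303), in lower case with capitals for matches to the motifs named below.
Csf1: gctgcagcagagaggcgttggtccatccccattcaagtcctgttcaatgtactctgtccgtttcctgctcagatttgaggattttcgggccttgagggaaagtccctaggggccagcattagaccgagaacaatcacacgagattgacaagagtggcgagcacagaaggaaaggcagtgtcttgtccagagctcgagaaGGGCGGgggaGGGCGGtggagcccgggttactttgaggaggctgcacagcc
Cd200: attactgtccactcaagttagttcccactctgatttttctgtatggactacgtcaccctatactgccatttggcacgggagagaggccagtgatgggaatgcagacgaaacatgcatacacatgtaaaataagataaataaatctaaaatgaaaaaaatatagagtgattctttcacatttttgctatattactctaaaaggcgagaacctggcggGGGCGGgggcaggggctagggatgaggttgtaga
Both strands of each window were searched for short motifs. The GC box, with the letters GGGCGG, was found 2 times before Csf1, without overlap, and 1 time before Cd200. It was present in 32.7% of all 32851 windows of this length. No match was found in either window for the AP-1 motif (letters TGANTCA, in 6.75% of all windows). The same held for the cAMP response element (letters TGACGTCA, in 1.55% of windows) and for the TATA box (letters TATAAA, in 12.4% of windows). It also held for the E-box, spelled CACGTG and present in 6.02% of windows. The bases G and C made up 56.4% of the Csf1 window and 42.4% of the Cd200 window, against a median of 52.4% over all windows. RefSeq windows were matched for 5 of the 8 genes.

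Csf1 levels in naïve mice 1 to 6 were 7.67, 12.3, 6.83, 10.3, 8.65 and 8.51 CPM. In withdrawn mice 1 to 5 they were 29.8, 19.2, 28.6, 47.4 and 19.3 CPM. Every withdrawn mouse lay above every naïve mouse, and withdrawn mouse 4 was highest. In bulk RNA of this kind, more cells of a type and more RNA per cell cannot be told apart. Each value rests on 73 to 580 reads. The group means were 9.05 ± 1.98 CPM (n = 6, SD) and 28.9 ± 11.5 CPM (n = 5, SD), a ratio of 3.19. In edgeR's quasi-likelihood test the log2 fold change was 1.71 (SE 0.34, adjusted p = 0.0931), which corresponds to 3.27-fold with a 95% interval of 1.93 to 5.54. Csf1 was thus not called at an adjusted p of 0.05, and ranked 31 of 17093 genes by unadjusted p (0.000174). In edgeR no other member had an unadjusted p under 0.05, a level that 7.22% of all genes reached, 5.00% as higher and 2.22% as lower in withdrawn mice. A complete separation of this kind, withdrawn above naïve, was seen for 0.714% of all genes tested. The reverse separation was seen for 0.24% of all genes and for no member.

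The call for Csf1 depended on the test. DESeq2's Wald test gave a log2 fold change of 1.75 (SE 0.32) with an adjusted p = 1.78e-05 and called Csf1 higher in withdrawn mice. At the thresholds of an adjusted p of 0.05 and a log2 fold change of 0.6 in either direction, edgeR called 0.00585% of genes and DESeq2 1.66%, of which most were higher in withdrawn mice (1.57% of all genes). An exact permutation test of log2 CPM, two-sided over all 462 splits of the mice, gave p = 0.00216 for Csf1, the smallest that 6 against 5 mice allow. In edgeR, leaving out withdrawn mouse 2 brought Csf1 past the threshold (log2 fold change 1.80, adjusted p = 0.0200). Without withdrawn mice 3, 4 and 5 the log2 fold change was 1.46 (adjusted p = 0.726), and the exact test of 6 against 2 mice gave p = 0.0357, the smallest possible there.

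**Figure D1:**
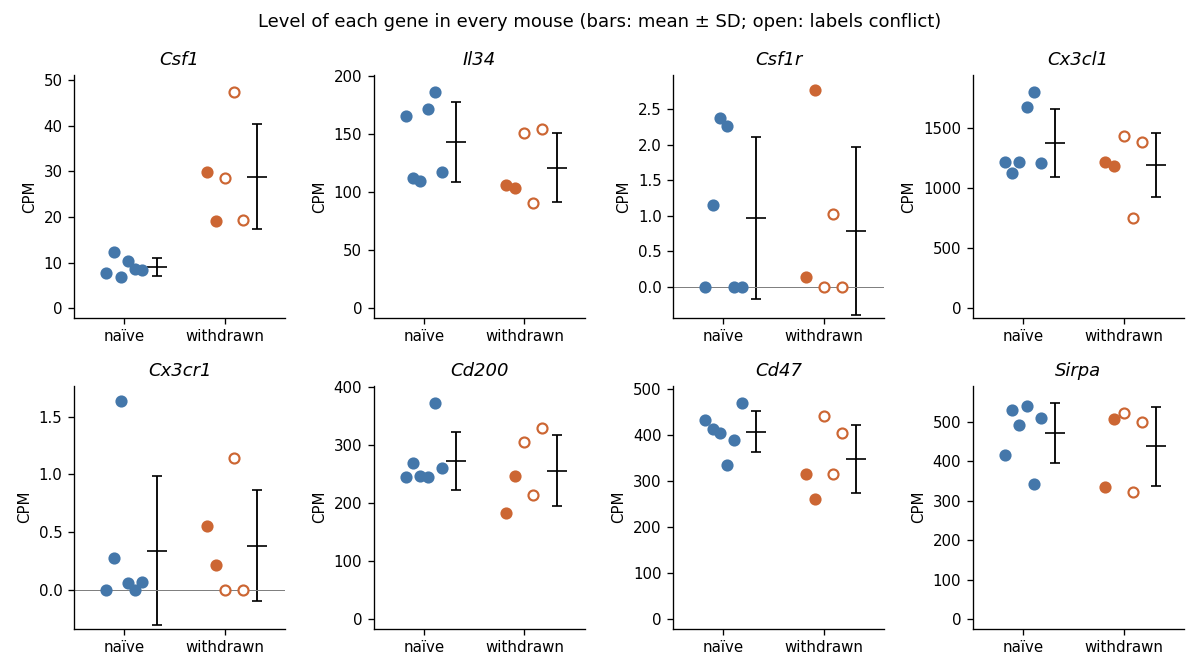
Level of each gene (CPM, y axis of each panel) in each naïve (blue) and withdrawn (orange) mouse, with bars for mean ± SD and open points for withdrawn mice 3, 4 and 5, whose labels conflict. Csf1 is the panel in which the groups do not overlap, at 6.83 to 12.3 CPM against 19.2 to 47.4 CPM.

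Il34, the other CSF1R ligand, did not follow Csf1. It was at 166, 112, 109, 172, 186 and 117 CPM in naïve mice 1 to 6. Withdrawn mice 1 to 5 had 106, 104, 151, 91.1 and 155 CPM. The groups overlapped, with 3 withdrawn mice below all naïve mice. The log2 fold change was −0.23 (SE 0.19, edgeR adjusted p = 0.868), with a 95% interval of −0.65 to 0.20 that does not reach the difference seen for Csf1. Without the 3 mice with conflicting labels it was −0.44 (SE 0.27, edgeR adjusted p = 0.806). Of the Il34 exons, 97 bases are also covered by Gm15894 and Gm15895 on the opposite strand, and whether the counting used strand is not stated.

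Set side by side within each library, the ligands had another balance in withdrawn mice. Per kilobase of exon, Il34 was 44.1 ± 12.8 times the level of Csf1 (n = 6, SD) in naïve mice and 13.02 ± 6.11 times (n = 5, SD) in withdrawn mice. Csf1 made up 1.69% to 3.91% of both ligands per kilobase in naïve mice. In withdrawn mice 1 to 5 its share was 9.42%, 6.43%, 6.55%, 16.2% and 4.43%. The shares did not overlap between groups, and withdrawn mouse 5 was nearest to the naïve range. The log2 ratio of Csf1 to Il34, which does not depend on scaling between libraries, differed by 1.85 (two-sided exact permutation test, p = 0.00216). Without the 3 mice with conflicting labels it differed by 1.84 (exact permutation test, p = 0.0357). Csf1 enters this ratio and alone gave the same p in both comparisons, so the ratio is no separate evidence of its difference. The sum of both ligands was 75.1 ± 17.6 CPM per kilobase (n = 6, SD) in naïve and 67.5 ± 14.0 (n = 5, SD) in withdrawn mice, a difference within the spread between mice (exact permutation test of the log2 sum, p = 0.450). The log2 sum differed by −0.15, and by −0.33 without those 3 mice (exact permutation test, p = 0.214). Il34 thus supplied most of the transcript of these ligands in every mouse of both groups.

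**Figure D2:**
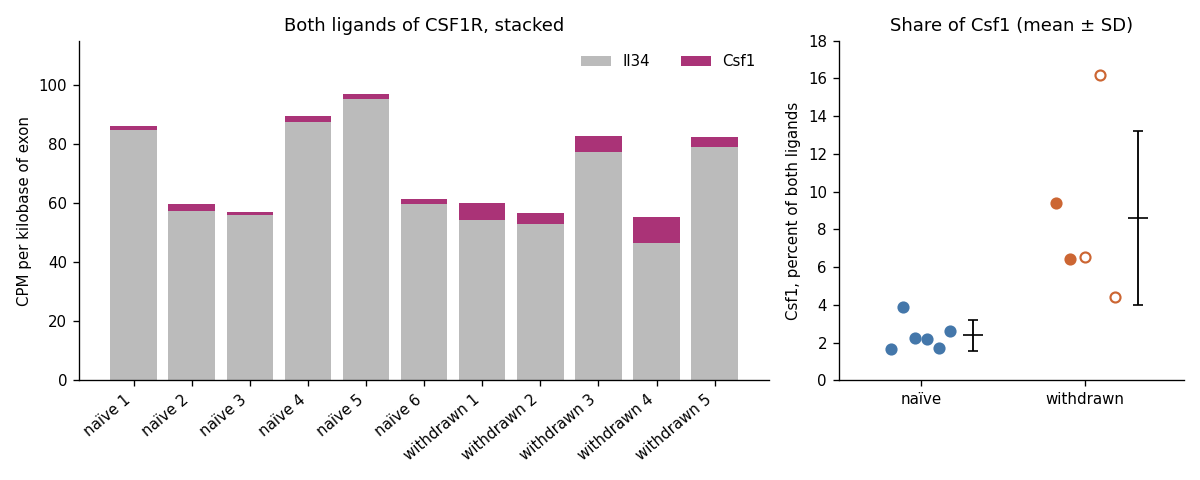
Left, Il34 (grey) and Csf1 (purple) in CPM per kilobase of exon, stacked for each mouse. Right, Csf1 as a percent of both, with mean ± SD and open points for the 3 mice with conflicting labels: 1.69% to 3.91% in naïve and 4.43% to 16.2% in withdrawn mice.

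The receptor of both ligands, Csf1r, was close to the detection limit in these libraries. It had 0, 21, 26, 39, 0 and 0 counts in naïve mice 1 to 6, and 2, 26, 0, 9 and 0 counts in withdrawn mice 1 to 5. No reads were found in 3 naïve and 2 withdrawn mice, and the remaining mice did not separate the groups. The level was 0.963 ± 1.14 CPM (n = 6, SD) and 0.785 ± 1.2 CPM (n = 5, SD), with a log2 fold change of −0.26 (SE 1.59, edgeR adjusted p = 0.986). The 95% interval of −3.86 to 3.34 shows that even a large difference was not detectable with this spread between mice. Of the 5774 exonic bases of Csf1r, 873 are shared with Hmgxb3 on the other strand, which makes these few reads uncertain.

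Cx3cl1, the chemokine gene, was the most abundant of the 8 genes. Its levels were 1131 to 1800 CPM in naïve mice (median 1219) and 1220, 1182, 1432, 753 and 1383 CPM in withdrawn mice 1 to 5. The groups overlapped except for withdrawn mouse 4, which lay below all naïve mice. The log2 fold change was −0.19 (SE 0.17, 95% interval −0.58 to 0.20, edgeR adjusted p = 0.892). Its receptor gene Cx3cr1 was below the count filter of the test, with 0, 5, 18, 1, 0 and 1 counts in naïve mice and 8, 2, 0, 10 and 0 counts in withdrawn mice. Without the filter, its log2 fold change was 0.16 with an SE of 1.62 (edgeR adjusted p = 0.983). Transcript of the ligand was thus plentiful in every library and that of its receptor at or near 0.

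No restraining signal was called as different between the groups. Cd200 was at 245, 270, 246, 246, 373 and 261 CPM in naïve mice and at 183, 248, 305, 215 and 330 CPM in withdrawn mice. Naïve mouse 5 was highest, and the groups overlapped. The log2 fold change was −0.08 (SE 0.16, 95% interval −0.44 to 0.29, edgeR adjusted p = 0.963). Without the 3 mice with conflicting labels it was −0.33 (SE 0.22, edgeR adjusted p = 0.819).

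Cd47 was at 432, 413, 403, 335, 390 and 469 CPM in naïve mice and at 314, 261, 442, 315 and 403 CPM in withdrawn mice. Withdrawn mice 1, 2 and 4 were below all naïve mice, and the other two were within the naïve range. The log2 fold change was −0.22 (SE 0.14, 95% interval −0.54 to 0.11, edgeR adjusted p = 0.821), and the exact permutation test gave p = 0.11. That p was 0.0333 without withdrawn mouse 3 and 0.0357 without the 3 mice with conflicting labels, where edgeR's adjusted p stayed above 0.05.

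Sirpa, the receptor of CD47, was at 343 to 539 CPM in naïve mice (median 501) and at 335, 507, 524, 323 and 500.5 CPM in withdrawn mice. The log2 fold change was −0.09 (SE 0.17, 95% interval −0.48 to 0.30, edgeR adjusted p = 0.958). In contrast to Csf1r and Cx3cr1, Sirpa was abundant in each library. The ratio of Cd47 to Sirpa per kilobase was 0.694 ± 0.145 (n = 6, SD) in naïve and 0.638 ± 0.142 (n = 5, SD) in withdrawn mice.

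**Figure D3:**
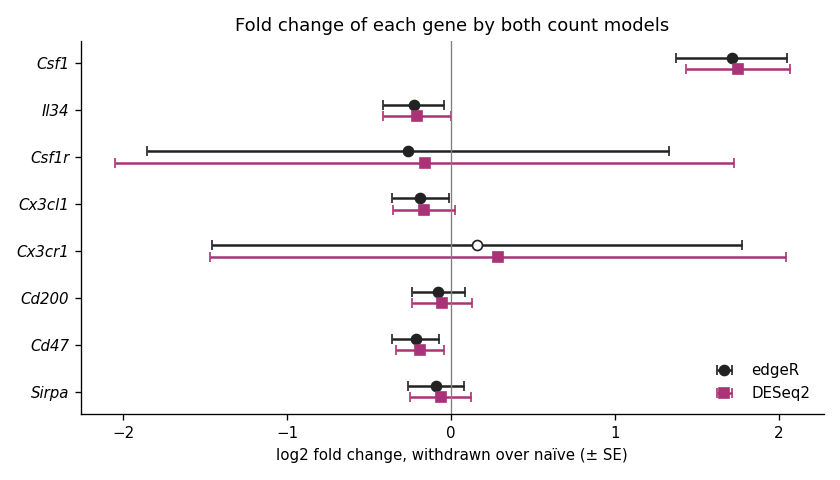
Log2 fold change of each gene, withdrawn over naïve (x axis, ± SE), by edgeR (circles; open for Cx3cr1, fitted without the count filter) and DESeq2 (squares). Csf1 lies at 1.71 and 1.75, 5 genes lie between −0.23 and 0 with small errors, and the SEs of Csf1r and Cx3cr1 are 1.59 or larger.

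Of the 7 members in edgeR's test none was called, where edgeR called 0.00585% of all genes. DESeq2 called 1 member, Csf1, and 1.66% of all genes. In edgeR 6 members had a log2 fold change below 0, as had 48.2% of all genes tested, where the median of all genes was 0.021. These 6 were Il34, Csf1r, Cx3cl1, Cd200, Cd47 and Sirpa, from −0.26 to −0.08. Their intervals include 0, and an adjusted p above 0.05 does not show that the groups were equal.

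Levels can be compared between genes only per length of exon. In CPM per kilobase, the order over the 11 mice was Cx3cl1 (mean 329), Sirpa (92.9), Cd200 (80.0), Il34 (68.2), Cd47 (60.5), Csf1 (3.42), Csf1r (0.153) and Cx3cr1 (0.0795). Length taken from the longest transcript gave the same order. Cx3cl1 lay above Sirpa, Cd47 above Csf1, and Csf1 above Csf1r in 11 of 11 mice. The neighbours from Sirpa to Cd47 were not cleanly ordered. Sirpa was above Cd200 in 10 mice, Cd200 above Il34 in 9 and Il34 above Cd47 in 7 of 11. Csf1r was above Cx3cr1 in 4 of 11.

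Among 17069 genes, the naïve level of Cx3cl1 per kilobase lay above 99.5% of genes, and those of Sirpa, Cd200, Il34 and Cd47 above 95% to 96.8%. Csf1 was above 34.8% in naïve mice. In naïve mice it was at 1.71 ± 0.374 CPM per kilobase (n = 6, SD), and in withdrawn mice at 5.46 ± 2.17 (n = 5, SD), still below each of the 5 more abundant genes in every mouse.

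**Figure D4:**
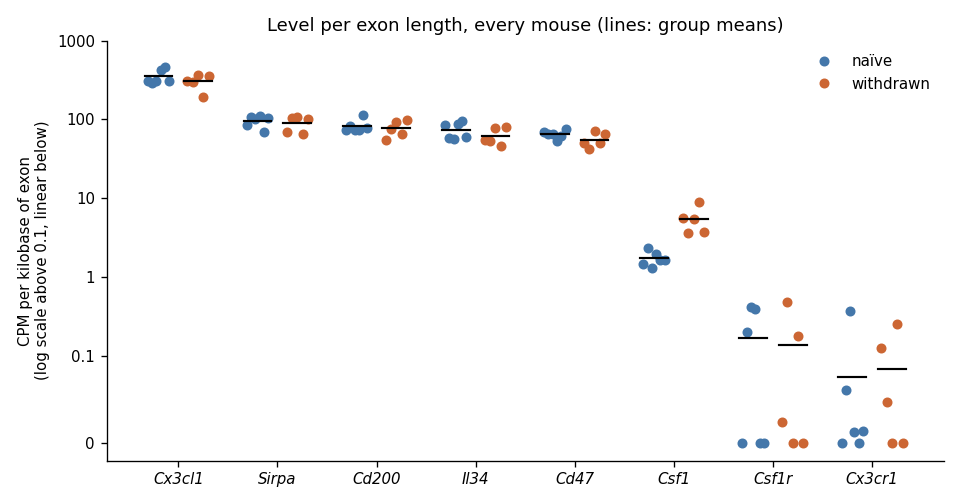
Level per kilobase of exon (y axis, log scale above 0.1 and linear below) of the 8 genes in each naïve (blue) and withdrawn (orange) mouse, in order of the mean over 11 mice, with lines for group means. Cx3cl1 is at 192 to 458, the next 4 genes at 41.6 to 112, and Csf1 at 1.29 to 8.97, with Csf1r and Cx3cr1 below 0.5.

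Markers of other cell types were set beside Csf1. Of the 20 microglia markers, 11 were tested by edgeR and none was called, with 2 at an unadjusted p under 0.05 (Olfml3 and Tmem119) and 1 called by DESeq2 (Olfml3). Over all genes, edgeR called 0.00585% and DESeq2 1.66%, and 7.22% had an unadjusted p under 0.05 in edgeR. Their summed level was 25.4 to 45.1 CPM in naïve mice and 145, 38.8, 70.1, 111 and 53.4 CPM in withdrawn mice 1 to 5. Between 3 and 16 of the 20 were at 0 in each mouse. Of the defining markers, P2ry12, C1qa, C1qb, C1qc and Itgam reached at most 3.76 CPM in any mouse. Tmem119, also a defining marker, reached 1.64 CPM in naïve and 13.3 CPM in withdrawn mice. P2ry12 had no reads in 4 of 6 naïve and 4 of 5 withdrawn mice.

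Olfml3 made up a large part of the microglia sum in withdrawn mice 1 and 4, with 0 to 2.23 CPM in naïve mice and 72.2, 7.33, 20.4, 49.98 and 12.4 CPM in withdrawn mice. It was the only marker of this list with separate groups (log2 fold change 5.35, SE 1.01, edgeR adjusted p = 0.0883). Such a separation, withdrawn above naïve, was seen for 0.714% of all genes tested. Tmem119 was at 0 to 1.64 CPM in naïve mice and at 7.50, 0, 7.25, 13.3 and 8.20 CPM in withdrawn mice (edgeR adjusted p = 0.558). Border macrophage markers, such as the mannose receptor gene Mrc1, summed to at most 10.3 CPM in any mouse.

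Csf1r, Cx3cr1 and Sirpa were also compared with the mean log2 CPM of the microglia markers over the 11 mice. For Cx3cr1, Pearson's r was 0.66 (permutation p = 0.0259, adjusted over 3 genes 0.0778) and Spearman's rho 0.58 (permutation p = 0.0650, adjusted 0.195). Without the 2 mice farthest from the median, r was 0.68 (permutation p = 0.0455, adjusted 0.137). On deviations from the group means, r was 0.68 and rho 0.74 (permutation p = 0.0216 and 0.0126, adjusted 0.0649 and 0.0378). With only the markers that had a count in every mouse, r was −0.27. Given at most 18 reads per mouse for Cx3cr1, no relation was established. For Csf1r, r was 0.26 and rho 0.26 (permutation p = 0.437 and 0.443, adjusted 0.532 and 0.573). For Sirpa they were −0.21 and −0.19 (permutation p = 0.532 and 0.573, adjusted 0.532 and 0.573).

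The fibroblast sum was above the naïve range in withdrawn mice 1, 3, 4 and 5, and Csf1 was above its naïve range in these mice and in mouse 2. All 7 markers tested had a log2 fold change above 0 (median 3.66), where 48.2% of all genes tested were below 0. In edgeR 5 of these markers had an unadjusted p under 0.05, where 5.00% of all genes were higher at that p. None was called by edgeR and 3 were called by DESeq2. Over all genes, edgeR called 0.00585% and DESeq2 1.66%. Col1a1, a chain of type I collagen, was at 0 to 16.5 CPM in naïve mice and at 364, 2.87, 160, 208 and 72.5 CPM in withdrawn mice (edgeR adjusted p = 0.157). With the mean of the fibroblast markers as a covariate, the log2 fold change of Csf1 was 1.20 (SE 0.39, edgeR adjusted p = 1.00). Withdrawn mice 1, 3 and 4 had the highest fibroblast sums, 1273, 709 and 879 CPM, and the highest Csf1, 29.8, 28.6 and 47.4 CPM. Withdrawn mouse 5 had a sum of 233 CPM and 19.3 CPM of Csf1. Withdrawn mouse 2 had the lowest sum and the lowest Csf1 of the withdrawn mice. Its fibroblast sum of 19.7 CPM was within the naïve range and its Csf1, at 19.2 CPM, was above every naïve mouse. Among naïve mice, mouse 3 had the highest fibroblast sum, 74.7 CPM, and 6.83 CPM of Csf1. Naïve mouse 4 had the next highest sum, 51.97 CPM, and 10.3 CPM of Csf1, and naïve mouse 1 had 4.52 CPM of fibroblast markers and 7.67 CPM of Csf1. The share of reads outside exons was 5.77% to 31.5% in naïve and 13.3% to 48.1% in withdrawn mice, highest in withdrawn mouse 4. With that share as a covariate, the log2 fold change of Csf1 was 1.51 (edgeR adjusted p = 0.264).

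**Figure D5:**
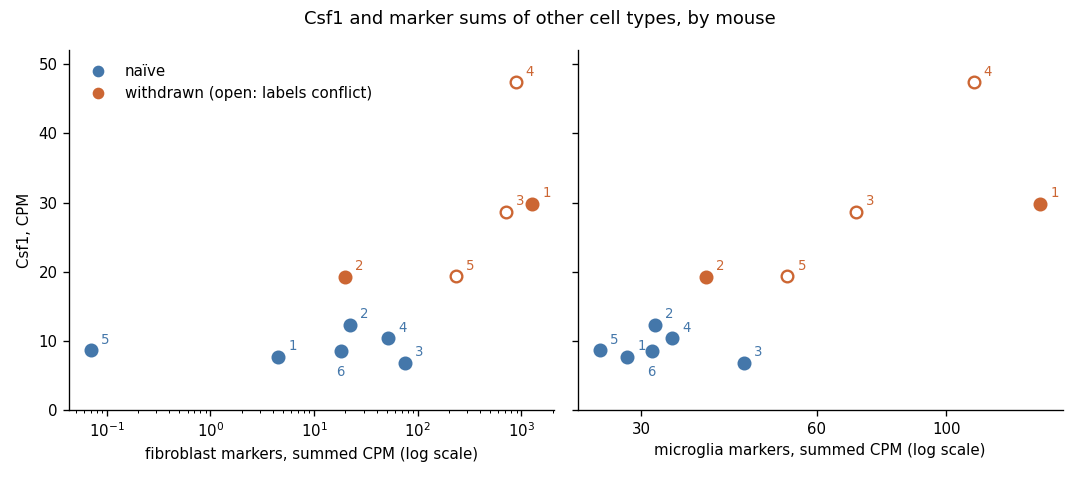
Csf1 (y axis, CPM) against the summed CPM of 10 fibroblast markers (left) and 20 microglia markers (right), both on log x axes, with 1 numbered point per naïve (blue) or withdrawn (orange) mouse and open points where labels conflict. Withdrawn mouse 2 has 19.7 CPM of fibroblast markers, inside the naïve range, and 19.2 CPM of Csf1, above it.

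Other marker lists moved less evenly. Of 9 endothelial and mural markers tested, 7 had a log2 fold change below 0 (median −0.84), among them Ly6c1 at 3.12 to 246 CPM in naïve and 5.62 to 159 CPM in withdrawn mice (edgeR adjusted p = 0.887). Of 9 astrocyte markers tested 6 were below 0 (median −0.21). Among the 3 above 0 was the gap junction gene Gja1, at 0 to 31.6 CPM in naïve mice and 298, 6.05, 229, 253 and 133 CPM in withdrawn mice (log2 fold change 3.61, edgeR adjusted p = 0.250). S100b was at 43.4 ± 24.3 CPM (n = 5, SD) in withdrawn and 18.4 ± 15.5 CPM (n = 6, SD) in naïve mice, and Aldoc, a glycolytic enzyme, at 64.3 ± 23.1 (n = 5, SD) and 107 ± 32.7 CPM (n = 6, SD). Slc1a2, the glutamate transporter gene with the highest level in that list, was at 181 ± 25.5 (n = 5, SD) and 238 ± 65.8 CPM (n = 6, SD).

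Of 6 oligodendrocyte markers tested 4 were below 0 (median −0.26). Mbp, encoding myelin basic protein, was at 134 ± 32.8 CPM (n = 6, SD) in naïve and 104 ± 51.7 CPM (n = 5, SD) in withdrawn mice. Cldn11, a claudin of myelin, was at 0 to 2.09 CPM in naïve mice and 46.3, 0, 17.0, 25.8 and 5.20 CPM in withdrawn mice (edgeR adjusted p = 0.262, DESeq2 adjusted p = 0.00847). All 4 precursor markers tested by edgeR were above 0 (median 0.69). Gpr17, a receptor gene of committed precursors, was called by DESeq2, at 0.119 ± 0.214 CPM (n = 6, SD) in naïve and 2.28 ± 2.49 CPM (n = 5, SD) in withdrawn mice (log2 fold change 4.34, DESeq2 adjusted p = 0.049, with too few counts for the edgeR test). Their highest member by level, Pdgfra, was at 0 to 6.38 and 0 to 15.8 CPM. The part of these cell types in the Csf1 difference was not tested beyond the covariate fits, in which the log2 fold change of Csf1 was 1.20 to 1.69.

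Neuronal markers were set beside these lists. Of 8 glutamatergic markers 6 had a log2 fold change below 0 (median −0.16), and Neurod2, a neuronal transcription factor, was at 92.1 ± 11.5 CPM (n = 6, SD) in naïve and 67.3 ± 21.7 CPM (n = 5, SD) in withdrawn mice (edgeR adjusted p = 0.653). Of 8 GABAergic markers 7 were above 0 (median 0.68). The exception was the somatostatin gene Sst, at 684, 469, 22.7, 0.174, 0.0709 and 297 CPM in naïve mice and at most 30.2 CPM in withdrawn mice (log2 fold change −5.33, SE 2.07, edgeR adjusted p = 0.545). Dlx6os1, a long noncoding RNA of interneurons, was at 5.02 ± 5.62 (n = 6, SD) and 26.3 ± 31.1 CPM (n = 5, SD).

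The next genes are partners of the 8 members. Of 11 second receptors, sister receptors and modifiers, 5 were tested and 4 had a log2 fold change above 0 (median 1.99). Thbs1 and Thbs2 encode thrombospondins, secreted matrix proteins that can bind CD47. Thbs2 was at 3.68, 1.14, 12.4, 6.57, 0 and 4.64 CPM in naïve mice and at 114, 9.88, 87.8, 96.9 and 43.3 CPM in withdrawn mice. Withdrawn mouse 2 alone was within the naïve range (log2 fold change 3.91, SE 0.87, edgeR adjusted p = 0.133, DESeq2 adjusted p = 0.00114). Thbs1 was at 0 to 4.30 CPM in naïve mice and at 174, 0, 56.5, 41.4 and 93.7 CPM in withdrawn mice (edgeR adjusted p = 0.137, DESeq2 adjusted p = 0.0510). Withdrawn mouse 2 thus had no Thbs1 reads.

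The remaining partners ranged from near 0 to the level of Qpctl. Sdc1, encoding a syndecan, and Ptprz1, encoding a phosphatase, are second receptors of IL-34. Ptprz1 was at 7.52 ± 9.88 CPM (n = 6, SD) in naïve and 8.80 ± 5.86 CPM (n = 5, SD) in withdrawn mice, and Sdc1 at 0.605 ± 0.732 (n = 6, SD) and 2.36 ± 1.38 CPM (n = 5, SD). The receptor gene of CD200, Cd200r1, was at 1.52 ± 2.34 (n = 6, SD) and 0.170 ± 0.239 CPM (n = 5, SD), too low to be tested. Qpctl, which encodes the enzyme that modifies the N terminus of CD47, was at 27.1 ± 9.65 (n = 6, SD) and 25.7 ± 5.76 CPM (n = 5, SD).

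Membrane CSF1 and CX3CL1 are released by proteases. Of 6 genes of this shedding machinery 5 were tested, 4 with a log2 fold change above 0 (median 0.16). None had an unadjusted p under 0.05 in edgeR, which 7.22% of all genes had. Adam10, encoding the protease with the highest level, was at 78.1 ± 17.8 CPM (n = 6, SD) in naïve and 84.9 ± 11.7 CPM (n = 5, SD) in withdrawn mice (log2 fold change 0.15, edgeR adjusted p = 0.926). Adam17, encoding a related protease, was at 10.6 ± 5.72 (n = 6, SD) and 15.1 ± 9.65 CPM (n = 5, SD).

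Of 16 adaptors, kinases and phosphatases next to these receptors, 14 were tested, 7 above and 7 below 0 (median −0.035). The kinase gene Fyn was at 168 ± 25.7 CPM (n = 6, SD) in naïve and 123 ± 16.4 CPM (n = 5, SD) in withdrawn mice, the 1 member with an unadjusted p under 0.05 (log2 fold change −0.43, SE 0.15, edgeR adjusted p = 0.461). Among all genes, 7.22% were under that unadjusted p. Tyrobp, the adaptor of microglial receptors, was at 0.138 ± 0.213 (n = 6, SD) and 0.340 ± 0.290 CPM (n = 5, SD).

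Relatives of CSF1R and the other colony stimulating factors formed a list of 16 genes, 12 tested, 9 of them above 0 (median 0.69). Csf3 had no counts in any mouse. Pdgfd, a ligand of PDGF receptor beta, was at 0 to 4.46 CPM in naïve mice and 61.7, 0.425, 37.5, 83.1 and 11.5 CPM in withdrawn mice (edgeR adjusted p = 0.256, DESeq2 adjusted p = 0.00901). Its receptor gene Pdgfrb was at 0 to 15.8 CPM and at 34.1, 0.850, 16.8, 78.2 and 7.03 CPM (edgeR adjusted p = 0.686). For both genes withdrawn mouse 2 was within the naïve range, and for Pdgfrb so was withdrawn mouse 5. Pdgfa, the ligand gene with the highest level, was at 72.5 ± 15.2 (n = 6, SD) and 56.2 ± 12.9 CPM (n = 5, SD).

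Of 28 other genes for neuronal signals to microglia, 22 were tested, 9 above and 13 below 0 (median −0.12). None was called by edgeR, 1 in each direction had an unadjusted p under 0.05 (Mdk and Bdnf), and DESeq2 called 1 (Mdk). Among all genes, 5.00% were higher and 2.22% lower at that unadjusted p in edgeR, and DESeq2 called 1.66%. Mdk, encoding the growth factor midkine, was at 0.315 to 2.98 CPM in naïve mice and 69.6, 0, 19.8, 40.5 and 10.6 CPM in withdrawn mice (log2 fold change 3.71, edgeR adjusted p = 0.256, DESeq2 adjusted p = 0.00781). Withdrawn mouse 2 had no Mdk reads. Bdnf, encoding brain-derived neurotrophic factor, was at 137 ± 27.1 CPM (n = 6, SD) in naïve and 84.3 ± 29.7 CPM (n = 5, SD) in withdrawn mice (log2 fold change −0.70, SE 0.22, edgeR adjusted p = 0.358). Ncam1, the adhesion gene with the highest level in the list, was at 353 ± 70.2 (n = 6, SD) and 314 ± 83.8 CPM (n = 5, SD).

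Genes whose log2 CPM followed Csf1 most closely over the 11 mice were Tbx15, Slc16a11, Serpinb6b, Qprt and Foxd1, with Pearson's r of 0.94 to 0.97 among 11810 genes. All 5 had separate groups, so that the group difference carries much of the likeness. Slc16a11, a member of the monocarboxylate transporter family, was at 31.4 ± 11.2 CPM (n = 6, SD) in naïve and 87.5 ± 22.5 CPM (n = 5, SD) in withdrawn mice. Tbx15 and Foxd1, transcription factor genes, were at 0.236 ± 0.346 and 0.925 ± 1.16 CPM (n = 6, SD) in naïve mice and at 22.6 ± 14.4 and 27.7 ± 21.6 CPM (n = 5, SD) in withdrawn mice. Qprt, encoding an enzyme of NAD synthesis, and Serpinb6b were at most 0.327 CPM in naïve mice and at 14.0 ± 10.2 and 14.2 ± 8.82 CPM (n = 5, SD) in withdrawn mice.

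On deviations from the group means, which leave the group difference out, the closest were Zfp280c, Lifr, Qk, Slc16a11 and Hmgxb4 (r of 0.84 to 0.87). Slc16a11 was in both lists. Lifr, encoding the receptor of leukemia inhibitory factor, was at 33.1 ± 12.5 (n = 6, SD) and 31.6 ± 17.7 CPM (n = 5, SD). Qk, encoding an RNA-binding protein, was at 20.4 ± 4.16 (n = 6, SD) and 19.3 ± 4.54 CPM (n = 5, SD). These values share libraries and depth with Csf1 and are a description of 11 mice.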

How the data were processed

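RNA from sorted mPFC CRF1+ neurons was measured in 6 naïve and 5 withdrawn mice, 1 library per mouse. Reads were trimmed, mapped to GRCm38 by STAR and counted per Ensembl gene by HTSeq, and the deposited counts are raw whole numbers of single mice. The strand setting is not given in the sources used here. Reads that fell outside exons, 5.77% to 48.1% of those tallied, were left out. Groups follow title and treatment, whereas the design text of the series states 5 control and 6 ethanol mice. By title, each library is of a different animal; another label repeats 3 animal numbers on naïve and withdrawn libraries. No batch is labelled. Symbols and exon lengths came from GENCODE M21.

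The members and gene lists were chosen with earlier results of these data known. The main test was the quasi-likelihood test of edgeR 4.0.16 in R 4.3.3, with TMM, filterByExpr (minimum count 10, minimum total 15) and Benjamini-Hochberg adjustment over all genes tested. Calls required an adjusted p no larger than 0.05 together with an absolute log2 fold change above 0.6. DESeq2 1.42.0 and voom in limma 3.58.1 were alternatives, besides other normalizations, filters, covariates and mice left out. Levels are CPM with TMM factors, and 2 was the prior count for log2 CPM. Exact permutation tests were two-sided. Floors of 3 counts cover counting error only, since the cDNA was amplified. The genes named are the 8 members, in each list the called genes, up to 4 with the smallest unadjusted p under 0.05 and the one with the highest level, the 5 genes most like Csf1 by either measure, and Crhr1, Slc17a7 and Gad2. The defining microglia markers and Sdc1, Ptprz1, Cd200r1, Qpctl, Adam17, Tyrobp, Csf3 and the genes that overlap members were added after values were seen. A gene that the rule names is not reported here. The scripts were tested on simulated data. No libraries were duplicates (chi-square per degree of freedom of at least 25.6 for any pair).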

Additional observations from a re-analysis of the deposited data

Results flagged for a closer look

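Of 48 sets of 4 to 10 mice, 5 had 1 mouse far from the others, where chance gives 2.4. Naïve mouse 5 stood apart in 4 of them. Its Cd200 level was 8.55 on the log2 CPM scale, above the next naïve mouse at 8.08, and without it the log2 fold change of Cd200 was 0.024. Its mean log2 CPM was the lowest for the shedding machinery (0.067), for the relatives of CSF1R and other colony stimulating factors (−0.25) and for the oligodendrocyte precursor markers (−2.79, the value of genes with no counts). This mouse had the fewest genes with a count (15585). Withdrawn mouse 4 had a mean log2 CPM of 5.498 for the endothelial and mural markers, against 1.74 in the next withdrawn mouse. It also had the highest Csf1 level, 47.4 CPM, and without it the log2 fold change of Csf1 was 1.42 (edgeR adjusted p = 0.330).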

How the results depend on the processing

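Of 359 values computed under the alternatives, 311 kept their direction and side of the threshold. Csf1 stayed higher in withdrawn mice in every edgeR, DESeq2 and voom fit. Its log2 fold change was past the threshold with at least 10 counts in every mouse (1.78, adjusted p = 0.0320), in DESeq2 (1.75) and, in a fit added after seeing the data, in DESeq2 without the 3 mice with conflicting labels (1.54, adjusted p = 0.00965). Over the fits that leave out 1 mouse it ranged from 1.42 to 1.82, with adjusted p from 0.0200 (without withdrawn mouse 2) to 0.343. It was lowest, at 1.20, with the fibroblast covariate. With the share of reads outside exons as an added covariate it was 1.51 (adjusted p = 0.264). The cause of these differences was not tested.

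The number of genes called was 1 in the fit reported, 137 without a count filter, 30 with at least 10 counts in every mouse, 362 in DESeq2, 0 with the fibroblast covariate and 0 without the 3 mice with conflicting labels. Added after seeing the data, it was 8 with an astrocyte covariate, 0 with a precursor covariate, 2 with an endothelial and mural covariate, 0 with the share outside exons and 168 in DESeq2 without those 3 mice. Leaving out 1 mouse gave 0 to 193 genes, 193 without withdrawn mouse 2 and 6 without naïve mouse 2. With the replicate block, 0 genes were called and Csf1 was at 1.62 (adjusted p = 0.630). Same-numbered mice correlated at −0.00813, −0.0594, −0.204, 0.0407 and 0.185, so that the numbers were not taken as a pairing.

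Directions that turned had adjusted p or exact p of at least 0.435. With the fibroblast covariate, Il34 was at 0.025, Cx3cl1 at 0.0051 and Cd200 at 0.15. Cd200 was also at 0.0096 in voom, 0.094 with the microglia covariate and 0.023 with the share outside exons, and from −0.18 to 0.024 with each mouse left out. Csf1r was at 0.56 in edgeR and 0.71 in DESeq2 without the 3 mice, and from −1.74 to 0.065 over the 8 leave-one-out fits that kept it. Its difference in log2 CPM was 0.76 without the 3 mice, and from −0.89 to 0.22 with each mouse left out. That of Cx3cr1 ranged from −0.13 to 0.84. That of Cd47 passed an exact p of 0.05 at −0.50 without the 3 mice and ranged from −0.34 to −0.15 with each mouse left out. With only the markers that had a count in every mouse, r with the microglia markers was −0.47 for Csf1r and −0.27 for Cx3cr1. Counts of at most 39 for Csf1r and 18 for Cx3cr1 limit what can be said of these receptors.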
